A study of Homo sapiens with 10 samples.

Results

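miR-7 is a microRNA (miRNA) made from 3 human hairpin genes, MIR7-1, MIR7-2 and MIR7-3. Its mature 5p arm, miR-7-5p, is the same from each hairpin, while miR-7-1-3p and miR-7-2-3p are the partner arms of the first pair of hairpins. The 3 probes, named hsa-miR-7-5p, hsa-miR-7-1-3p and hsa-miR-7-2-3p in the files, were taken by those names from the 2565 miRNA probes of each array. They were chosen because the 5p arm was already known to be dimmer on the lenvatinib arrays, so their differences between the groups are described here and not tested.

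The arrays carried RNA labelled as coming from HuH-7, a human cell line long used as a model of liver cancer. Control cells were kept for 96 h without lenvatinib and treated cells for 96 h with 1 µM lenvatinib, a drug that blocks receptor tyrosine kinases for VEGF and FGF. All cells grew in low-glucose medium with fetal serum and antibiotics. Each group had 5 single-colour 3D-Gene arrays, numbered 1 to 5, with 1 Cy5-labelled sample on each. The extraction entry of the labels names serum, whereas every other entry names the cell line. No label says that the samples of a group came from separate cultures, so every p-value below measures only the spread between arrays, which may be technical.

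miRNAs guide Argonaute proteins to messenger RNAs that pair with bases 2 to 8 of the miRNA, the seed. miR-7-5p is known for repressing the EGF receptor and the insulin receptor substrates, and it is abundant in neuroendocrine cells and brain. Its own level is set in part by RNAs that bind it. In mouse brain the long noncoding RNA CYRANO pairs extensively with miR-7 and triggers its decay, and the circular RNA CDR1-AS carries many miR-7 sites and is itself sliced under the guidance of miR-671-5p.

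The mature sequences are shown because the 5p arm and its partners are told apart only by them. They were read from RefSeq on GRCh38.p14, which held all 3, and capitals mark the seed. miR-7-5p lies at chr9:83969811-83969834 on the minus strand in MIR7-1 and at chr19:4770700-4770723 on the plus strand in MIR7-3. miR-7-1-3p lies at chr9:83969771-83969792 on the minus strand, and miR-7-2-3p at chr15:88611896-88611917 on the plus strand.
miR-7-5p: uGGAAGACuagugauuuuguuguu
miR-7-1-3p: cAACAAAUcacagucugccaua
miR-7-2-3p: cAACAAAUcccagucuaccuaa
The seed GGAAGAC of miR-7-5p was found in none of the 2369 other mature miRNAs compared. Its nearest neighbour in sequence, miR-3529-5p, was 5 edits away. The partner arms share the seed AACAAAU and differ by A10C, G17A, A20U and U21A, counted from the 5′ end with the base of miR-7-1-3p first. No mature miRNA lay within 3 edits of any of the 3 members, the partner arms being 4 edits apart.

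The hairpins of MIR7-2 and MIR7-3 are shown because the same 5p arm, here in capitals, sits in otherwise different stems. The MIR7-2 hairpin spans chr15:88611825-88611934 and the MIR7-3 hairpin chr19:4770670-4770779, both on the plus strand.
MIR7-2: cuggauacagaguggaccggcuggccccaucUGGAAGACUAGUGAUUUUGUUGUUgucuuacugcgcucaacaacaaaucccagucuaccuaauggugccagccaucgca
MIR7-3: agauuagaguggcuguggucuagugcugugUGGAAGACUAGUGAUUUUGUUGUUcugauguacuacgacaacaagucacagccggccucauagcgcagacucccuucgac
MIR7-1 lies within the span of HNRNPK, which encodes an RNA-binding protein, at chr9:83968083-83980615. MIR7-2 lies within the span of AEN, which encodes a p53-induced nuclease, at chr15:88604683-88632281. MIR7-3 lies within the noncoding gene MIR7-3HG at chr19:4769105-4772556. A probe for miR-7-5p reads the sum over the 3 genes and cannot assign its signal to any of them, while each partner arm belongs to 1 hairpin.

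The lenvatinib arrays were brighter throughout. The mean blank spot read 33.3 ± 1.51 on the control arrays and 68.0 ± 9.88 on the lenvatinib arrays (SD, n = 5 each), and the detection limit, 2 SD above the blanks, was 35.2 and 73.1. The spiked control spots differed 2.37-fold in the same direction and the median of the 868 probes detected on every array 2.56-fold. For each of these 4 measures the groups did not overlap, with an exact two-sided permutation p of 0.00794, the smallest that 252 splits allow, and a Benjamini-Hochberg p of 0.00992 over 5 measures. The fifth, the number of detected probes, was 1359.6 on average in controls and 1324 with lenvatinib (exact permutation p = 0.643). Lenvatinib array 5 had the highest blank level, 85.5. All hepatocyte marker miRNAs were detected on every array, miR-122-5p at a mean normalized log2 intensity of 12.12 in controls. Whether the brightness moved any miR-7 value was not tested, and for this reason each probe is given before and after scaling between arrays.

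hsa-miR-7-5p, the arm that represses the EGF receptor, was detected on all 10 arrays. Its raw intensity was 229, 223, 263, 214 and 227 on control arrays 1 to 5 and 171, 242, 201, 247 and 152 on lenvatinib arrays 1 to 5. On this scale the groups overlapped, lenvatinib arrays 2 and 4 standing among the controls although the whole array was brighter. After subtraction of the blank level the controls read 197, 189, 228, 183 and 192 and the lenvatinib arrays 108, 180, 136, 182 and 66.1. The subtracted means were 198 ± 17.7 and 135 ± 49.3 (SD, n = 5 each), a ratio of 1.47, and the highest lenvatinib array lay just under the lowest control array.

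Set against the detection limit of its own array, the raw signal of miR-7-5p was 6.18 to 7.22 times the limit in controls and 1.65 to 3.67 times with lenvatinib. It was 15.6 to 21.2 times the median probe of its array in controls and 1.90 to 7.27 times with lenvatinib. As a share of the spiked control signal it was 1.55% to 2.00% in controls and 0.201% to 0.714% with lenvatinib. On each of these 3 within-array scales the groups were separate, and lenvatinib array 5 was the lowest of the 10. How many other probes separate the groups on these scales was not counted. Nothing is read from the separation, since miR-7-5p was chosen on this contrast.

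After quantile normalization, which gives every array the same distribution of log2 values, miR-7-5p stood at 8.26, 8.41, 8.45, 8.20 and 8.22 on the control arrays. On lenvatinib arrays 1 to 5 it stood at 6.14, 6.73, 6.35, 6.66 and 5.20. Every lenvatinib array was below every control array by more than a log2 unit, and lenvatinib array 5 stood apart at the bottom. The normalized log2 means were 8.31 ± 0.11 and 6.21 ± 0.61 (SD, n = 5 each). The log2 difference was -2.09 with a standard error of 0.25, a level 4.27-fold lower with lenvatinib, and -1.86 without lenvatinib array 5. The spread of the controls was narrower than the median SD of 0.27 over the tested probes, and that of the lenvatinib arrays wider than their median of 0.35. Of 1346 tested probes, 8.84% had every lenvatinib array below every control array, from which nothing is read about miR-7-5p, since it was chosen on this contrast.

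**Figure D1:**
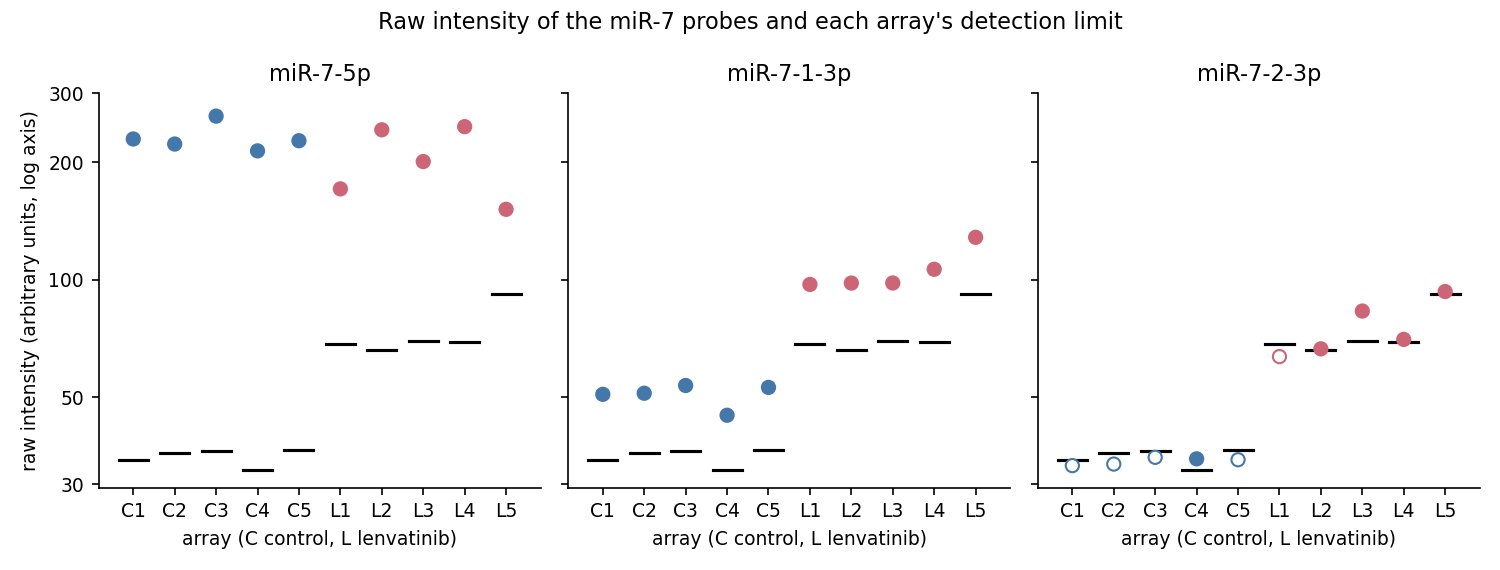
Raw intensity (arbitrary units, log axis) of the 3 miR-7 probes on each of the 5 control (C, blue) and 5 lenvatinib (L, red) arrays, with the detection limit of each array as a bar; open points are undetected. miR-7-5p stayed between 152 and 263 while the limit rose from 35.2 to 73.1 on average, miR-7-1-3p moved with the limit, and miR-7-2-3p lay on it.

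The same probe was lower in the intensities the authors had normalized. In the deposited globally normalized column miR-7-5p ranged from 707 to 827 in controls and from 75.8 to 349 with lenvatinib. In the deposited table of the whole series it ranged from 352.5 to 411.5 and from 45 to 134.1. The groups were separate in both, and lenvatinib array 5 again held the lowest value. The share of all probes separate in these values was not counted, and here too nothing is read from the separation.

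hsa-miR-7-1-3p, the partner arm cut from the MIR7-1 hairpin, was dim but detected on all 10 arrays. Its subtracted intensity was 18.0, 17.4, 19.3, 14.1 and 18.4 on control arrays 1 to 5 and 34.6, 36.0, 33.3, 42.0 and 43.0 on lenvatinib arrays 1 to 5. These groups did not overlap, with lenvatinib higher by 2.16-fold, less than the 2.56-fold rise of the median probe. Without scaling between arrays, 1287 of the 1346 tested probes passed limma as higher. The share of probes whose groups did not overlap on this scale was not counted, and nothing is read about miR-7-1-3p from this separation. Against the detection limit its raw signal was 1.38 to 1.48 times in controls and 1.40 to 1.54 times with lenvatinib, and the groups overlapped.

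Normalized log2 intensity of miR-7-1-3p was 4.90, 4.97, 4.97, 4.36 and 4.86 in controls and 4.62, 4.59, 4.43, 4.61 and 4.55 with lenvatinib. Control array 4 was the lowest of all 10, and without it the remaining controls lay above every lenvatinib array. The log2 difference was -0.25 with a standard error of 0.14, against a median of -0.03 over all tested probes, and it was 1.11 where arrays were not scaled to each other.

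hsa-miR-7-2-3p, the partner arm cut from the MIR7-2 hairpin, lay at the detection limit. It was detected on 1 of 5 control arrays, array 4, with a subtracted intensity of 3.92, and on lenvatinib arrays 2 to 5 with 4.45, 18.3, 5.94 and 7.83. Its raw signal was 0.937 to 1.07 times the limit in controls and 0.931 to 1.19 times with lenvatinib. The 1.19 was that of lenvatinib array 3, and the other 9 arrays lay between 0.931 and 1.07 times their limit.

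Undetected values of miR-7-2-3p were set to a floor of 1.63 on the normalized log2 scale. Control array 4 stood at 2.39 and lenvatinib arrays 2 to 5 at 1.68, 3.62, 1.84 and 2.23, the other 5 arrays being on the floor. The log2 difference was 0.42 with a standard error of 0.35, smaller than the SD of 0.83 among lenvatinib arrays. The probe had exactly the 5 detected arrays that testing required, and the deposited series table gives it no value.

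**Figure D2:**
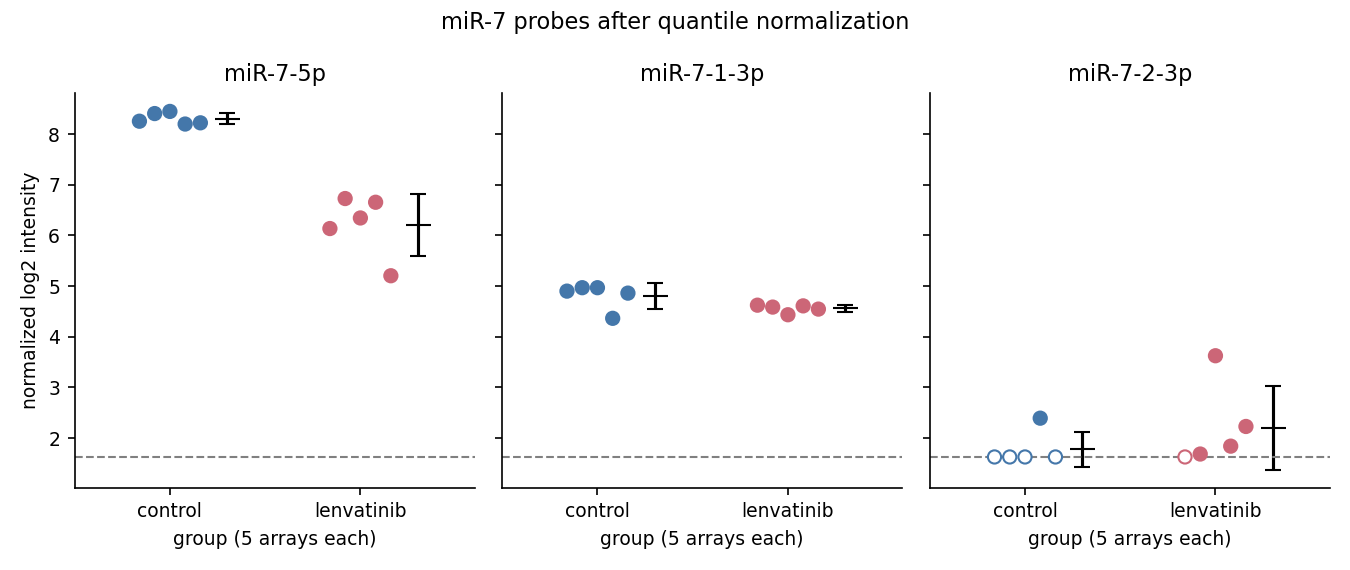
Normalized log2 intensity of the 3 miR-7 probes, each point 1 array, with the mean and SD of 5 arrays as a cross and bar; the dashed line is the floor of 1.63 and open points are undetected arrays set to it. miR-7-5p separates the groups by 2.09, while the points of both partner arms overlap.

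How unequally the arms of miR-7 changed was also measured within each array, where no scaling enters. The log2 ratio of subtracted miR-7-5p over miR-7-1-3p was 3.45, 3.44, 3.56, 3.70 and 3.38 on control arrays 1 to 5 and 1.65, 2.32, 2.03, 2.12 and 0.62 on lenvatinib arrays 1 to 5. Every lenvatinib array had a smaller ratio than every control array. From this separation nothing is read, since miR-7-5p was chosen on this contrast. How many other arm pairs separate the groups in this way was not counted. The means were 3.51 ± 0.12 and 1.75 ± 0.68 (SD, n = 5 each), a log2 difference of -1.76, or a ratio 3.38-fold smaller, and of -1.48 without lenvatinib array 5. Probes of different miRNAs differ in brightness per molecule, so the ratio describes unequal changes of signal and not which arm is more abundant. Its denominator, miR-7-1-3p, was dim, with a raw signal of 1.38 to 1.54 times the detection limit across the arrays.

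For context, the change of the 5p arm minus the change of the 3p arm was taken for the 356 hairpins or hairpin pairings with both arms tested. Its median size was 0.40 on the log2 scale, and 41 pairs (11.5%) had a gap wider than 1. The gap of miR-7-5p to miR-7-1-3p was -1.84, the fifth widest. That of miR-7-5p to miR-7-2-3p was -2.51, the widest of the 356, but it rests on the floor given to undetected miR-7-2-3p. Among the 161 pairs with both arms detected on all 10 arrays, miR-7 was exceeded only by miR-6765, whose gap was 2.35 in the other direction. Both miR-7 gaps contain the change of miR-7-5p, on which it was chosen, so nothing is read about miR-7 from these ranks.

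In 20 of the pairs, as in miR-7, an arm is shared by several hairpins. Their gaps ranged from -2.51 to 1.48, and those wider than 1.48 were the ones of miR-7, a place again owed in part to how miR-7-5p was chosen. The 3 widest of the others were those of miR-29b-2-5p to miR-29b-3p at 1.48, miR-29b-1-5p to miR-29b-3p at 1.30 and miR-128-2-5p to miR-128-3p at 1.17. The first pair of these share the arm miR-29b-3p. In all 3 the shared arm is the 3p arm, so a positive gap means that the shared arm went lower than its partner, as in miR-7. miR-29b-3p changed by -2.03 against -0.56 and -0.73 for its partners, and miR-128-3p by -0.40 against 0.77. In contrast, the shared arm miR-16-5p went higher than its partner miR-16-2-3p, at 0.83 against -0.33.

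**Figure D3:**
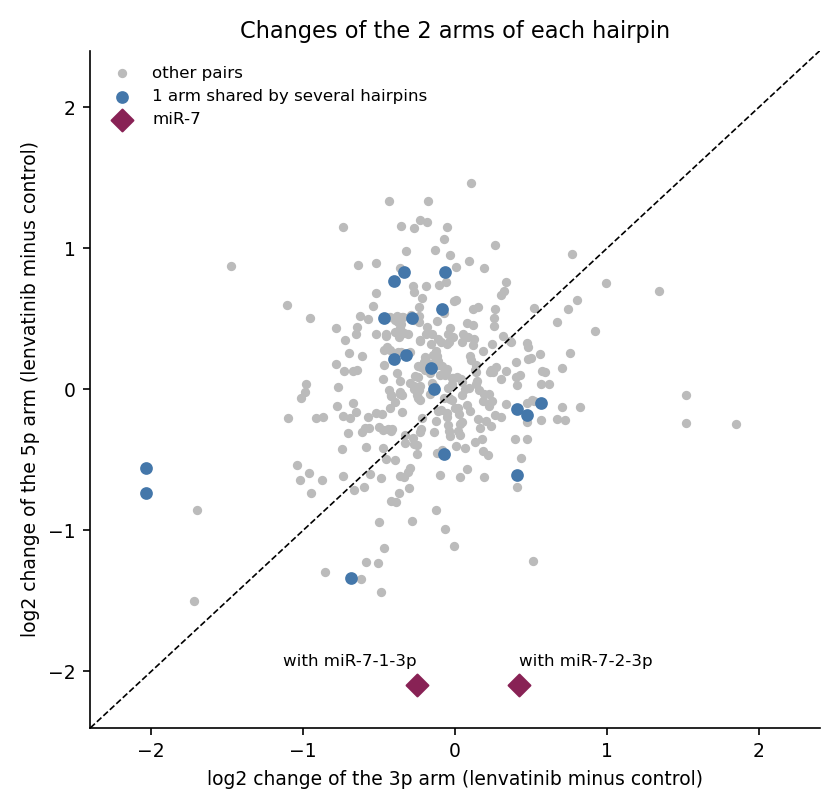
Log2 change (lenvatinib minus control) of the 5p arm against that of the 3p arm for 356 pairs, with pairs that share an arm in blue, miR-7 as diamonds and equal change as the dashed line. Both miR-7 points lie at -2.09 on the vertical axis, far below the line, with their 3p arms at -0.25 and 0.42.

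miR-671-5p, which guides the slicing of CDR1-AS, rose with lenvatinib. Its subtracted intensity was 22.3, 20.5, 25.4, 23.5 and 24.6 on control arrays 1 to 5 and 94.4, 117, 121, 122 and 147 on lenvatinib arrays 1 to 5. Every lenvatinib array exceeded every control array several times over, more than the array-wide brightness did. After normalization the log2 change was 0.88 ± 0.13 (SE), or 1.84-fold, with a limma adjusted p of 0.000459 over 1346 probes. Of these probes 21.5% passed at 0.05, 12.1% higher and 9.36% lower.

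The sequence of miR-671-5p is shown for its seed, which begins with the same GGAAG as that of miR-7-5p but is not the same seed. The RefSeq entry lies at chr7:151238449-151238471 on the plus strand of GRCh38.p14, and capitals mark the seed.
miR-671-5p: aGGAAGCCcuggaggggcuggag
Its partner miR-671-3p had a log2 difference of -0.64 ± 0.25 (SE, limma adjusted p = 0.0923), and was undetected on lenvatinib array 5. Neither CDR1-AS nor CYRANO has a probe among the miRNAs, so their levels were not analysed here.

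The other miRNAs of the MIR7-2 locus and its surroundings were detected on few arrays. miR-1179, whose gene lies 3628 bases from the MIR7-2 hairpin, was detected on 1 of 10 arrays. miR-3529 is read from the opposite strand of the MIR7-2 hairpin, and its arms are therefore antisense to those of miR-7. miR-3529-5p was detected on 4 of 10 arrays, 2 in each group.

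miR-3529-3p is shown because it is the exact reverse complement of miR-7-5p, with 0 edits between them. It lies at chr15:88611856-88611879 on the minus strand, with capitals for the seed.
miR-3529-3p: aACAACAAaaucacuagucuucca
It was detected on lenvatinib array 1 alone, where the raw intensity was 123 against a limit of 68.4. On the other 9 arrays its raw intensity was below the limit, so miR-3529-3p was not detectable there.

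The other miRNAs known to repress ERBB receptors or their signalling went both ways. Of 25 listed, 24 were tested, 4 rose, 2 fell and 18 did not pass, with a median log2 change of 0.00 against -0.03 over all probes. The 6 of 24 that passed stand beside 21.5% of all probes, a share near the background. The changes of the 24 ran from -1.64 to 0.99. The rise with the smallest p was that of miR-16-5p, a repressor of cyclins and BCL2, at 0.83 ± 0.10 (SE, limma adjusted p = 0.000246). It did not pass with arrays scaled to their median, their 75th percentile or the authors' global factor, where the log2 change was 0.36, 0.21 and 0.38.

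miR-424-5p, which has the seed of the miR-15/16 family, rose by 0.54 ± 0.11 (limma adjusted p = 0.00406). miR-146a-5p, an NF-κB-induced miRNA that targets the adaptor TRAF6, fell by 1.64 ± 0.38 (limma adjusted p = 0.0102), but did not pass without scaling, at -0.07, or with no detection filter, where the adjusted p was 0.0527. Its normalized log2 level was 6.70 to 7.02 in controls, 5.55 to 5.75 on lenvatinib arrays 1 to 4 and 3.48 on lenvatinib array 5. The remaining calls, named after their values were seen, were let-7g-5p at 0.99 and miR-125a-5p at 0.60, which rose, and miR-497-5p at -0.60, which fell. Of these, let-7g-5p was near the floor, at mean normalized log2 levels of 2.19 in controls and 3.18 with lenvatinib. It was detected on 4 of 5 control arrays.

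Of 15 miRNAs known to be induced by receptor tyrosine kinase and ERK signalling, 11 were tested, none rose, 5 fell and 6 did not pass, a direction relative to the other probes, since without scaling between arrays the 3 named first below were above 0, at 0.63, 0.10 and 0.37. Of all probes 9.36% fell. All 11 had a log2 change below 0, from -1.30 to -0.12, with a median of -0.41 against -0.03 over all probes. They are not 11 separate results, since several share a transcript or are arms of the same hairpin. miR-18a-5p and miR-19a-3p, of the MYC-responsive miR-17 cluster, fell by 0.74 ± 0.13 and 1.30 ± 0.24 (SE, limma adjusted p = 0.00180 and 0.00225). miR-21-3p, the partner arm of miR-21, fell by 0.96 ± 0.22 (limma adjusted p = 0.00852). It was dim, at mean normalized log2 levels of 3.33 in controls and 2.37 with lenvatinib, and was detected on 4 of 5 lenvatinib arrays. Its log2 change was only -0.11 with normexp background correction and -0.12 with no background correction, though it still passed. The remaining 2, named after their values were seen, were miR-21-5p and miR-221-3p.

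CYRANO removes miR-7 in mice by target-directed decay, in which an RNA that pairs extensively with a miRNA exposes it to degradation. All 9 other miRNAs listed as substrates of such decay were tested. Of them 2 rose, 3 fell and 4 did not pass, with a median log2 change of -0.35; over all probes 12.1% rose and 9.36% fell. miR-29b-3p, which represses collagens and is destroyed through the NREP transcript in mice and zebrafish, fell by 2.03 ± 0.16 (limma adjusted p = 1.98e-05), with normalized log2 levels of 8.87 to 9.25 in controls and 6.74 to 7.29 with lenvatinib. miR-424-5p rose as given above, and miR-503-5p, made from the same transcript, rose by 0.52 ± 0.11 (limma adjusted p = 0.00472). With undetected values left missing, neither of these rises passed, at 0.48 and 0.41. miR-221-3p and miR-497-5p are the remaining 2 that fell, at -0.44 and -0.60, and were named after their values were seen.

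**Figure D4:**
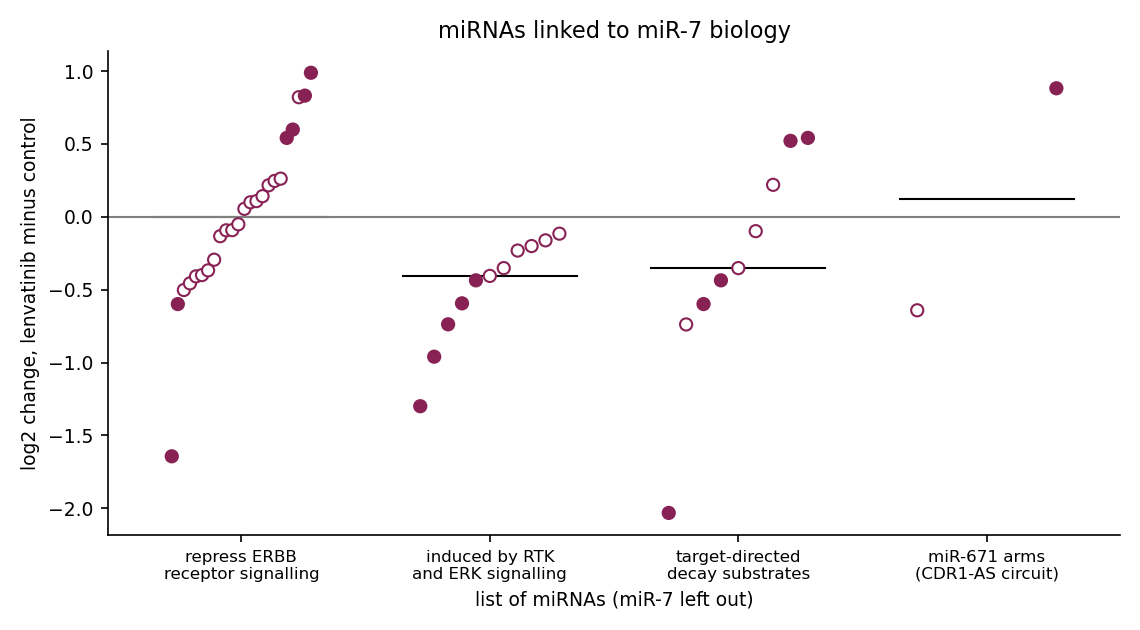
Log2 change (lenvatinib minus control, normalized) of the tested miRNAs in 4 lists linked to miR-7 biology, miR-7 itself left out; filled points passed limma at an adjusted p of 0.05, and black bars are medians. The 24 repressors of ERBB receptor signalling centre on 0.00, and miR-671-5p is the upper point of the last list. The 11 miRNAs induced by receptor tyrosine kinases all lie below 0, but several of them share a transcript or a hairpin.

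Markers of the cells in which miR-7 is best known were uneven. Of 9 neuroendocrine and neural miRNAs on the array, 6 were tested and 1 passed, miR-218-5p, which rose by 1.11 ± 0.13 (SE, limma adjusted p = 0.000191). miR-375, the defining miRNA of pancreatic islets, was near the detection limit and had a log2 difference of 0.25 ± 0.28 (limma adjusted p = 0.588). miR-128-3p, detected on all 10 arrays like miR-218-5p, stood at a mean normalized log2 level of 7.74 in controls and 7.34 with lenvatinib (limma adjusted p = 0.328), and miR-124-3p had a log2 difference of -0.53 (limma adjusted p = 0.348). miR-129-2-3p and miR-153-3p were undetected on all arrays. The summed normalized level of the list was 343 to 410 in controls and 416 to 601 with lenvatinib. Most of it came from miR-128-3p and from miR-218-5p, at a mean normalized log2 level of 7.24 in controls and 8.35 with lenvatinib. The other members were far dimmer, so the sum was higher with lenvatinib through miR-218-5p and not through the list as a whole.

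Markers of blood cells are given because the extraction label names serum. The summed erythroid level was 15.5 to 22.2 in controls and 5.61 to 28.2 with lenvatinib, neither of the 2 tested of 4 passed, and miR-144-5p was undetected throughout. The summed leukocyte level was 125 to 147 in controls and 20.2 to 72.9 with lenvatinib, most of it from miR-146a-5p, the only one of the 3 tested that passed. The summed hepatocyte level was 7972 to 8707 in controls and 10090 to 11205 with lenvatinib, where 3 of 6 markers rose and miR-885-5p fell, at -1.22 (named after its value was seen), beside 12.1% and 9.36% of all probes. The part of any of these in the miR-7 values was not tested.

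The probes with the profile most like that of miR-7-5p were found by the mean absolute difference between centred normalized log2 profiles over the 10 arrays, among 1336 probes with a value on each. They were miR-130b-3p at 0.228, miR-224-5p at 0.296, miR-29b-3p at 0.310, miR-6765-3p at 0.318 and miR-146a-5p at 0.330, where the median probe was at 1.04. All 5 fell with lenvatinib, with log2 changes from -2.03 ± 0.16 to -1.47 ± 0.25 (SE, limma adjusted p from 1.98e-05 to 0.0102), and only miR-29b-3p passed also without scaling. Since likeness over these arrays includes the difference between the groups, this direction follows from how they were picked. miR-130b-3p stood at 6.93 on lenvatinib array 5 and at 7.93 to 8.12 on the other lenvatinib arrays. That it was low on the same array as miR-7-5p also follows from how it was picked.

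For miR-7-1-3p the most alike were miR-423-3p at 0.0946, miR-1285-3p at 0.0966, miR-16-2-3p at 0.111, miR-1307-3p at 0.111 and miR-6882-3p at 0.119, with the median probe at 0.361. None of the 5 passed, their log2 differences lying between -0.36 and -0.12 (limma adjusted p from 0.0776 to 0.558). For miR-7-2-3p they were miR-1288-5p at 0.262, miR-7845-5p at 0.263, miR-191-3p at 0.293, miR-6810-5p at 0.293 and miR-4268 at 0.303, against a median of 0.541. These 5 were also dim, at mean normalized log2 levels of 1.81 to 3.30 in either group, and none passed (limma adjusted p from 0.402 to 0.832). No probe appeared in more than 1 of the 3 sets.

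**Figure D5:**
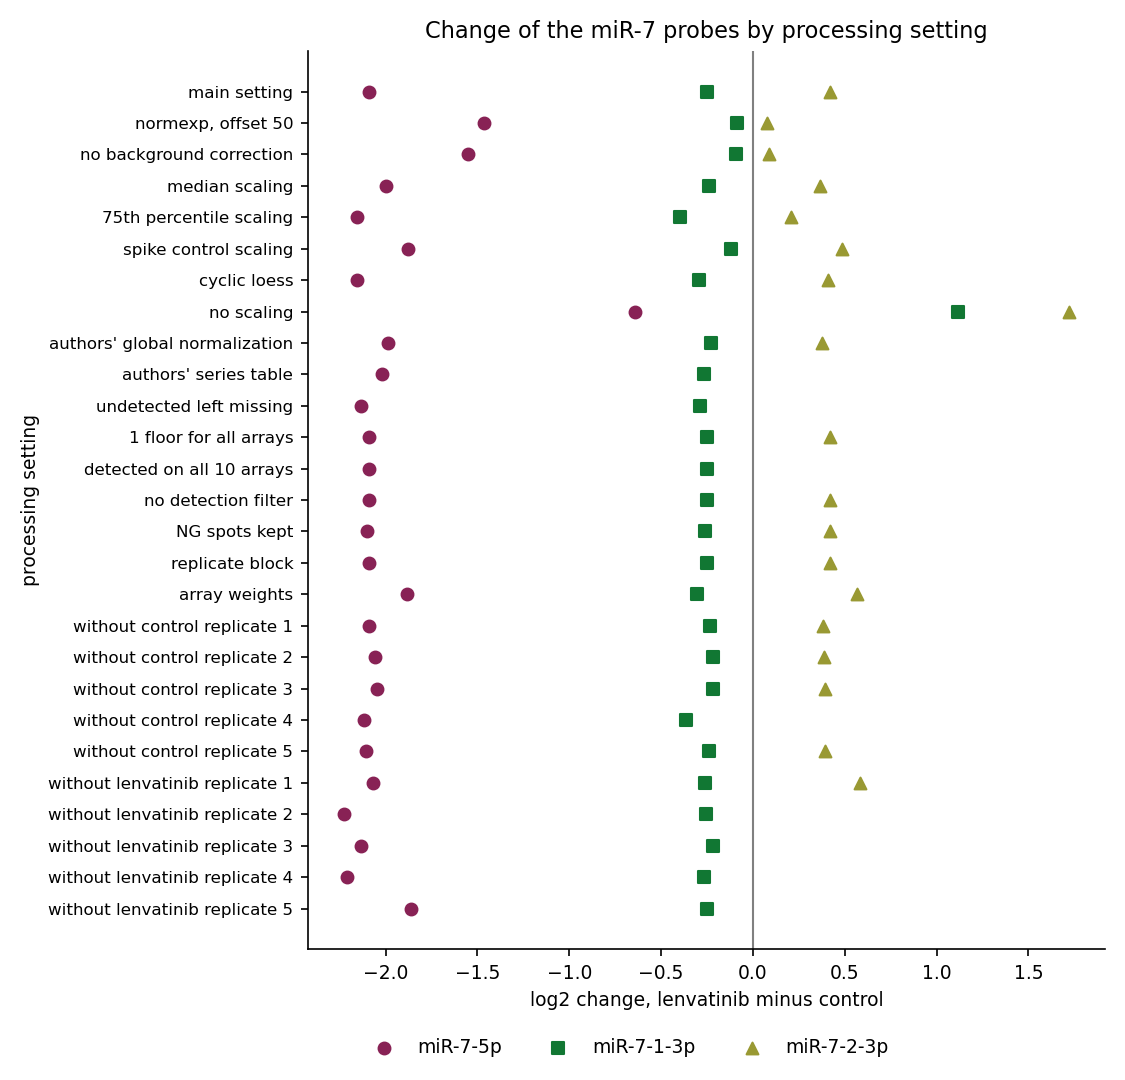
Log2 change (lenvatinib minus control) of the 3 miR-7 probes under the main setting and each alternative, including each array left out in turn; a missing point means that the probe had no value there. miR-7-5p lay below 0 under every one, from -2.23 to -0.64, while miR-7-1-3p was above 0 only where arrays were not scaled and miR-7-2-3p was above 0 wherever it had a value.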

How the data were processed

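Cy5-labelled total RNA was hybridised to 3D-Gene arrays, per the labels' protocols. Scanner, software, slides and dates: not given in the sources used here. Per the file headers, the deposited intensity columns are raw, background-subtracted and globally normalized by the authors, all linear. From the values, the subtracted intensity was raw minus the mean of 320 blank spots trimmed by 5% at each end, left empty unless raw exceeded it by 2 SD, which matched 100% of cells. The deposited series table covers 803 probes. Unused per-sample columns: 0.

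Spots marked NG were left out, none of them a miR-7 spot. An undetected probe took its array's lowest detected value, and log2 values were quantile normalized. The 1346 probes detected on at least 5 of 10 arrays were tested with limma 3.58.1 in R 4.3.3 (two-sided, Benjamini-Hochberg over all probes, threshold 0.05), without a replicate block. A check on simulated data preceded the fit. Array measures were compared by exact permutation tests (scipy 1.17.1). The number of arrays limits the precision.

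The members, the lists and the alternatives were chosen with earlier results of these data known. Named were the 3 members, the called miRNAs with the smallest p in each list (at most 3, or the smallest p up to 2), the 5 probes most like each member, any probe sharing a member's seed or within 3 edits, the 3 widest gaps among shared arms, and both arms of miR-671. miR-424-5p, miR-497-5p, miR-146a-5p, miR-128-3p, miR-155-5p, miR-221-3p and miR-222-3p stand in more than 1 list. The alternatives covered background correction, scaling, the treatment of undetected probes, the detection filter, NG spots, the authors' own normalized values, array weights, a replicate block and each array left out.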

Additional observations from a re-analysis of the deposited data

Results flagged for a closer look

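In the 62 groups of 5 values examined, 14 had an array whose gap to its nearest neighbour exceeded 0.71 of the group's range. For independent values chance alone gives about 1 in 20. These groups share arrays and some hold floor values, so the 14 cannot be weighed against that rate. Lenvatinib array 5 was that array in 9 of the 14. It had the highest blank level (85.5, the others up to 64.9), detection limit (92.1, the others up to 69.8) and median subtracted intensity (34.7, the others up to 27.0). On the normalized log2 scale it was the lowest of its group for miR-146a-5p (3.48), miR-19a-3p (7.30), miR-130b-3p (6.93) and miR-6765-3p (6.16), and stood off by less than 0.03 for miR-16-5p (12.14) and miR-424-5p (9.47). miR-7-5p was also lowest there, at 5.20, without passing the same mark. Of these probes, miR-130b-3p, miR-6765-3p and miR-146a-5p are among those picked for a profile like that of miR-7-5p. Their low values on lenvatinib array 5 therefore follow in part from that choice.

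Control array 4 stood apart for miR-7-1-3p, at 4.36 against 4.86 to 4.97, and for miR-7-2-3p, at 2.39 with the other 4 controls on the floor of 1.63. It was also low for miR-1285-3p (5.13) and high for miR-7845-5p (3.70). Lenvatinib array 3 was high for miR-191-3p (3.37). Outside the tested probes, miR-3529-3p, antisense to miR-7-5p, had a subtracted intensity of 60.4 on lenvatinib array 1 and was undetected on all control arrays.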

How the results depend on the processing

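The log2 change of miR-7-5p was below 0 under all 26 alternatives. It was -1.47 with normexp background correction, -1.55 with no background correction, -0.64 without scaling between arrays and -2.23 to -1.86 with each array left out. miR-7-1-3p was at 1.11 without scaling and at -0.37 to -0.22 with each array left out. miR-7-2-3p had a value under 18 alternatives, 1.72 without scaling and 0.38 to 0.58 with an array left out; under the others it failed the detection filter or was missing. The gap of miR-7-5p to miR-7-1-3p was -1.38 with normexp and -1.97 to -1.62 with an array left out. Without scaling the median change of all probes was 1.30, 1289 probes passed, 1287 of them higher, and 38 list members passed where 14 did otherwise. With undetected values left missing, 186 probes and 9 list members passed. With an array left out, 227 to 337 probes and 12 to 16 list members passed. The split of 163 higher and 126 lower became 111 and 238 with 75th percentile scaling, where the median of all probes was -0.21, and 197 and 83 with spike scaling.

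Of 588 values of the 23 other named miRNAs, 533 kept their direction and their side of the threshold. Without scaling the sign turned for miR-18a-5p (0.63), miR-19a-3p (0.10), miR-21-3p (0.37), miR-671-3p (0.67), miR-423-3p (1.41), miR-1285-3p (1.12), miR-16-2-3p (1.04), miR-1307-3p (0.94), miR-6882-3p (1.00) and miR-191-3p (1.25). It turned for miR-423-3p with median (0.059), spike (0.18) and the authors' global scaling (0.072), and for miR-7845-5p with 75th percentile scaling (-0.0030). It turned for miR-1288-5p with 75th percentile scaling (-0.10) and without lenvatinib array 3 or 5 (range -0.030 to 0.24 with an array left out). It turned for miR-191-3p with spike scaling (0.017), cyclic loess (0.0097), undetected values missing (0.0059), array weights (0.024) and without lenvatinib array 1 (range -0.42 to 0.018 with an array left out). The causes were not tested. miR-671-5p and miR-29b-3p passed under all 26 alternatives, miR-671-5p with limma adjusted p from 9.69e-08 to 0.00953. The size of the change moved more. For miR-671-5p it was 0.43 with normexp, 0.46 with no background correction and 2.36 without scaling. For miR-29b-3p it was -1.63, -1.70 and -0.53 under the same settings.

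Same-numbered arrays of the groups correlated at 0.00085 to 0.140 in their deviations from the group means, above 0.1 for 4 of 5 pairs, and controls 1, 2 and 3 correlated best with the lenvatinib array of their own number, a hint from the data and not from the labels. Since 1 pair was below 0.1, the arrays were not treated as paired. With the replicate number as a block 257 probes passed, and the change of miR-7-5p was -2.09. A slide or scan block was not run, since the files name neither. Signal over background limits miR-7-2-3p, which no array showed far above its limit.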
